A study of Triticum aestivum with 6 samples.

Results

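Among the abundant transcripts of bread wheat roots, 169 stood at least 4-fold lower in every mycorrhizal library than in any control library. They were chosen by their measured values: an ID had to hold at least 20 FPKM in all 3 control libraries, and its lowest control value had to be at least 4 times its highest mycorrhizal value. FPKM counts the fragments of a transcript per kilobase of its length, scaled to the size of the library, so levels of different transcripts can be set side by side. The 169 IDs were found among 100231 IDs that begin with Traes_ or TRAES3BF, in a table of 114264 IDs. Of those wheat IDs, 8237 with distinct values reached 20 FPKM in all control libraries. They are called the abundant IDs here, and the 169 made up 2.05% of them (exact binomial 95% interval 1.76% to 2.38%, counting error only). A further 2 IDs met the rule but repeated a kept ID exactly in all 6 libraries, and they were dropped. The lowered direction of these IDs is therefore given by the choice and is no result of a test.

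Roots of Triticum aestivum, cultivar Chinese Spring, a hexaploid with A, B and D subgenomes, were grown in pots of steam-sterilized soil and quartz sand. The 3 mycorrhizal (AM) libraries are of inoculated roots. The series title gives the fungus as Rhizophagus irregularis, and the sample titles add that a molecular signal was added without naming it. The 3 non-mycorrhizal (NM) libraries came from roots without it, of the same cultivar and in the same substrate. The replicates are called biological by the series' design text, with plant age, inoculum and the number of plants behind each library not given in the sources used here.

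Arbuscular mycorrhizal fungi grow inside root cortex cells and form branched arbuscules there, through which the plant receives phosphate and other nutrients and gives sugars and lipids in return. Colonized roots of many plants lower part of the machinery by which the epidermis and root hairs take up phosphate directly, and they also adjust defence, cell wall and nutrient transport genes. Which of the lowered IDs belong to such processes cannot be said here. No ID comes with a gene name, and 0 of the 169 IDs matched any of the 155467 genes in the reference table (IWGSC CS RefSeq v2.1). The same held for all 114264 IDs, so the lack of a match is not particular to the lowered ones. Each ID states only its chromosome arm, such as 5DL for the long arm of chromosome 5D, and no role or sequence is given for any of them. Marker genes of the root, of other tissues or of the fungus could not be looked up for the same reason. The libraries are of whole root tissue, in which fewer cells of a type and less RNA per cell cannot be told apart.

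The libraries had similar totals, with summed values of 1136829 to 1193206 FPKM, and the absolute depth behind them is unknown. The steps between low values put relative depths at 0.829 to 0.927 of NM replicate 1 for the other libraries, with overlap between the groups. AM replicate 2 stood apart from AM replicates 1 and 3 over the lowered IDs. It held the highest AM value in 86.4% of the 169 IDs, in 79.3% of 421 IDs lowered 2 to 4-fold and in 42.7% of the 8068 other abundant IDs, which include the 421. Lowered 2 to 4-fold here means that the lowest NM value was 2 to 4 times the highest AM value. The other AM libraries could thus lie lower, and the NM mean of the 421 was 4.18 times their AM mean at the median. Chosen without it, the rule gave 366 IDs, which include all 169. A listed 0 may stand for an estimate that failed, and 5 of the 169 IDs were listed at 0 in at least 1 AM library.

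The lowered IDs had a higher median level in control roots than the other abundant IDs. Their median NM mean was 94.9 FPKM, against 46.4 FPKM in the 8068 others. The NM values had helped to choose the IDs, so this difference is a description and was not tested. Together the 169 made up 3.40%, 3.60% and 2.88% of the summed FPKM of NM replicates 1 to 3, and 0.137%, 0.491% and 0.102% in AM replicates 1, 2 and 3. The share was thus 3.30% ± 0.37 (SD, n = 3) in NM and 0.243% ± 0.215 (SD, n = 3) in AM, with AM replicate 2 above both other AM libraries. Chosen without AM replicate 2, the larger set of 366 IDs made up 5.6% of the NM total and 0.317% of the total in AM replicates 1 and 3. The mean of the 3 NM values was 12.7 times the mean of the 3 AM values at the median (quartiles 9.45 and 16.1), over a range of 4.94 to 53.1 times in the 167 IDs above 0 in some AM library.

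**Figure D1:**
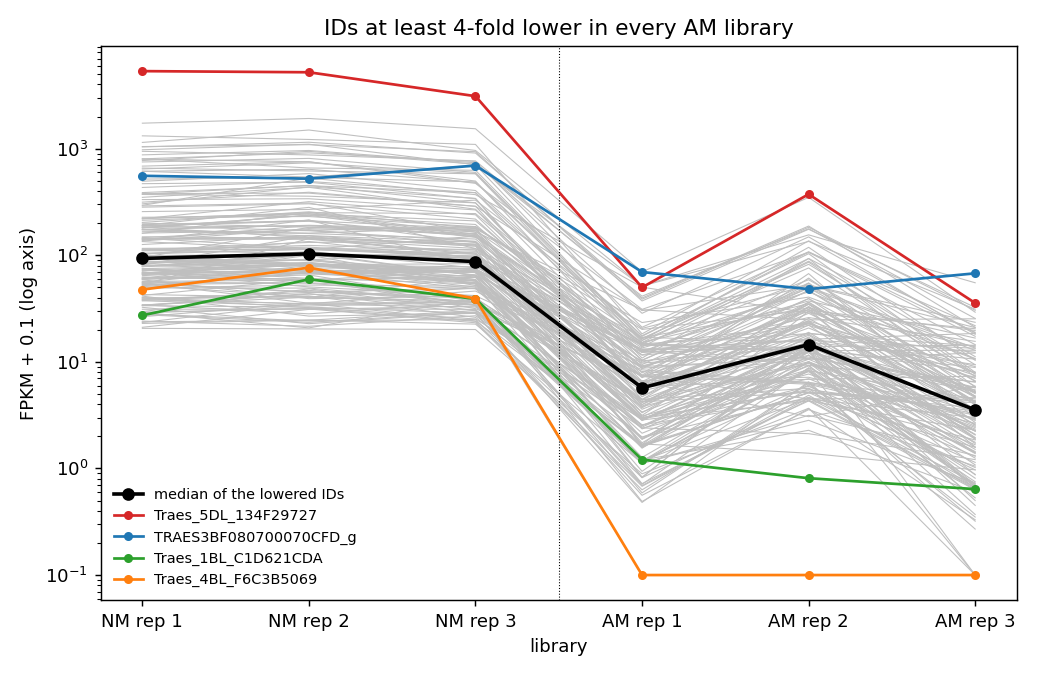
FPKM plus 0.1 on a log axis in each of the 6 libraries for the 169 lowered IDs (grey lines), with their median (black) and 4 named IDs in colour. The median lies between 87.2 and 103 FPKM in control roots and is 5.6, 14.4 and 3.44 FPKM in AM replicates 1, 2 and 3, with AM replicate 2 highest of the 3.

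The share of IDs that met the rule was larger among the more abundant ones. It was 0.893% of 4365 IDs with an NM mean of 20 to 50 FPKM (exact interval 0.636% to 1.22%), 2.39% of 2050 IDs at 50 to 100 FPKM and 3.50% of 1085 IDs at 100 to 200 FPKM. At 200 to 500 FPKM it was 3.77% of 584 IDs, and at 500 FPKM or more it was 13.7% of 153 IDs (exact interval 8.70% to 20.2%). These classes held 39, 49, 38, 22 and 21 of the lowered IDs. The NM values that form the classes also entered the choice, so the rise in the share is a description and was not tested. Of the lowered IDs with a value above 0 in some AM library, 151 had a lowest NM value 4 to 8 times their highest AM value, 15 lay at 8 to 16 times and 1 lay at 16 to 32 times.

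The most abundant lowered ID was Traes_5DL_134F29727 on arm 5DL. In the order of the replicate numbers, its NM libraries held 5338.73, 5208.55 and 3108.5 FPKM, and its AM libraries held 49.82, 373.64 and 35.5 FPKM. NM replicate 3 was the lowest control, and AM replicate 2 held over 10 times the level of AM replicate 3. This single ID made up 13.4%, 12.1% and 9.28% of the summed FPKM of the lowered IDs in the NM libraries. Its log2 change on the log2(FPKM + 1) scale was -5.64 ± 0.85 (SE, limma).

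The ID next in level, Traes_1AL_34404D5D8 on arm 1AL, held 1734.29, 1919.76 and 1537.52 FPKM in NM and 69.72, 349.27 and 29.12 FPKM in AM. Traes_6DL_42DF4F0A4 on arm 6DL held 1319.43, 1219.91 and 1096.37 FPKM in NM and 18.2, 136.46 and 18.54 FPKM in AM. In both, AM replicate 2 lay several times above the other AM libraries and far under every NM library. A pair of IDs of chromosome 3B stood at a like level in NM, and AM replicate 2 was again the highest AM library. It lay at 2.91 times the mean of AM replicates 1 and 3 in TRAES3BF026400030CFD_g and at 5.04 times in TRAES3BF114600130CFD_g. TRAES3BF026400030CFD_g held 1144.59, 1496.1 and 962.25 FPKM in NM and 51.56, 155.3 and 55.09 FPKM in AM. TRAES3BF114600130CFD_g held 1046.21, 1089.92 and 937.13 FPKM in NM and 37.18, 175.29 and 32.33 FPKM in AM. Its controls spread by less than those of the former. Traes_5BL_3B390119D on arm 5BL, with 1037.98, 1148.94 and 909.76 FPKM in NM and 39.64, 187.79 and 20.98 FPKM in AM, completed the 6 most abundant. The 10 most abundant lowered IDs held 36.6% ± 1.9 (SD, n = 3) of the summed level of all 169 in NM and 26.6% ± 6.2 (SD, n = 3) in AM.

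The most abundant lowered IDs of the other homoeologous groups were less abundant. A homoeologous group joins the related A, B and D chromosomes of the same number. In group 7, Traes_7AS_04B7C0B3F held 801.83, 913.11 and 757.86 FPKM in NM and 21.01, 107.78 and 18.85 FPKM in AM. In group 4, Traes_4AL_E47637735 held 800.65, 658.93 and 626.6 FPKM in NM and 16.31, 93.17 and 14.41 FPKM in AM. In group 2, Traes_2AL_D0C3751FD held 685.88, 752.3 and 496.95 FPKM in NM and 10.75, 93 and 5.68 FPKM in AM. AM replicate 2 was the highest AM library in each of these 3 IDs.

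By the ratio of lowest NM to highest AM value, the 4 widest gaps among IDs above 0 in every AM library were found in less abundant IDs. Traes_1BL_C1D621CDA on arm 1BL held 27.2, 59.36 and 38.87 FPKM in NM and 1.11, 0.71 and 0.54 FPKM in AM, so its lowest NM value was 24.5 times its highest AM value. Traes_3AL_514CB3741 on arm 3AL held 23.63, 24.49 and 30.19 FPKM in NM and 1.6, 1.29 and 0.87 FPKM in AM, 14.8 times apart by the same measure. In these 2 IDs the 3 AM libraries lay within about 1 FPKM of each other and AM replicate 2 was not the highest. Traes_7AS_B8B7D3BF9 on arm 7AS held 75.14, 60.6 and 53.86 FPKM in NM and 0.62, 4.29 and 0.56 FPKM in AM. Traes_7BL_338C7044D on arm 7BL held 78.28, 105.39 and 64.12 FPKM in NM and 2.89, 5.25 and 0.87 FPKM in AM. Both had their highest AM value in replicate 2, yet kept a gap of 12.6 and 12.2 times between the groups' nearest values.

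Just 2 lowered IDs were listed at 0 in every AM library. Traes_4BL_F6C3B5069 on arm 4BL held 47.5, 76.43 and 39.14 FPKM in NM, and Traes_5AL_E41F5A1A1 on arm 5AL at 54.99, 35.38 and 36.16 FPKM. No fold is given for them, because the detection limit behind a listed 0 is unknown without counts. Both dropped out of the fits that left out an NM library, since fewer than 3 libraries then held 1 FPKM.

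**Figure D2:**
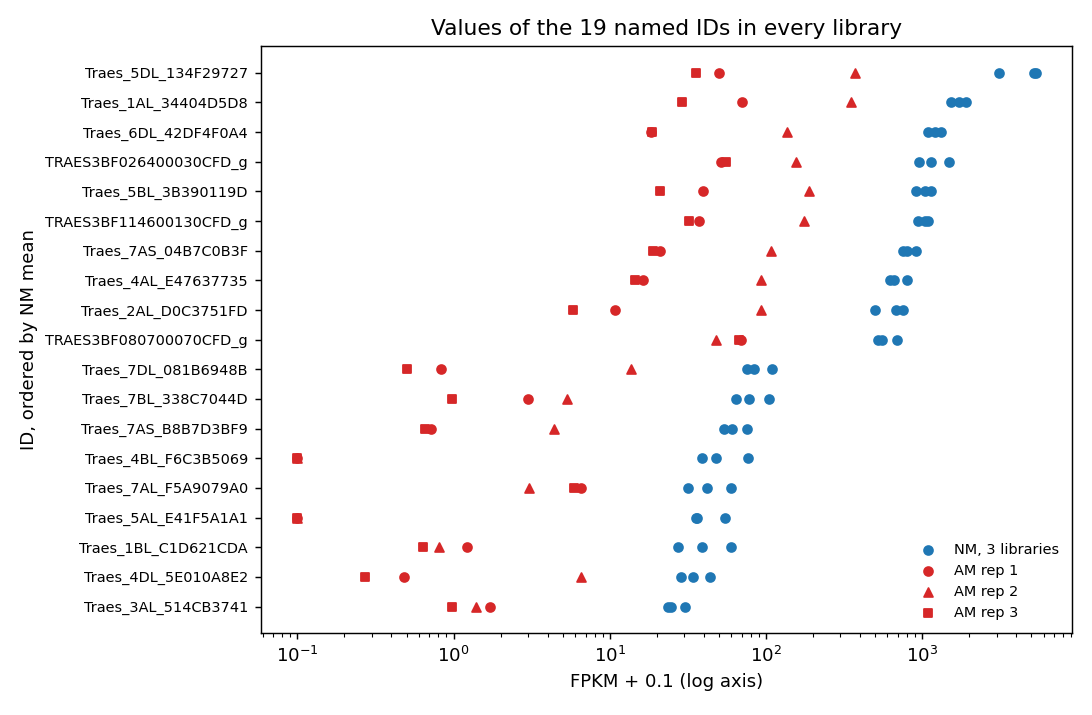
FPKM plus 0.1 on a log axis for the 19 IDs named by rule, ordered by NM mean, with the 3 NM libraries as blue points and AM replicates 1, 2 and 3 as red circles, triangles and squares. The blue and red points do not overlap in any row, by the choice of the IDs, and the red triangle lies to the right of the other red points in most rows.

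At the edges of the rule the IDs changed gradually. Just inside the 4-fold bound, Traes_7DS_3A44BE7A3 held at least 148.71 FPKM in NM and at most 37.17 FPKM in AM, and Traes_4AS_DD48F481C held at least 131.36 and at most 32.8 FPKM. Just outside it, Traes_6AL_795BA7DAC held at least 187.52 and at most 47.29 FPKM, and Traes_2BL_95044D775 held at least 74.59 and at most 18.85 FPKM. At the bound of 20 FPKM, the lowest NM values just inside were 20.01 FPKM (Traes_1DL_B63CADDCD) and 20.73 FPKM (Traes_3AL_0B42A98E1), and just outside they were 19.65 FPKM (Traes_7BS_8A4A052DF) and 19.56 FPKM (Traes_3DS_BB402655B). In the fit of AM against NM over all 64974 IDs with at least 1 FPKM in 3 or more libraries, 7.14% of IDs were called lower in AM at an adjusted p under 0.05 (limma, Benjamini-Hochberg). All 169 lowered IDs entered this fit and all 169 were called lower, which the choice on the same contrast makes likely and from which nothing is read. Their median log2 change was -3.84 (quartiles -4.35 and -3.25), beside 0.05 over all tested IDs, and their median standard error was 0.54, beside 0.18. The number of tested IDs called lower, 4637, became 2080, 1902 and 3046 without NM replicates 1, 2 and 3 and 2519 without AM replicate 3.

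The choice was also repeated with 1 library left out. For each library in turn, IDs were chosen by the same rule on the other 5 libraries and then read in the library left out. Of 174 IDs chosen without AM replicate 3, 169 also met the 4-fold bound there (97.1%), against 7.14% of the 8237 abundant IDs. Of 192 IDs chosen without AM replicate 1, 88.0% met it there, against 4.75% of the same 8237 IDs. Of 366 IDs chosen without AM replicate 2, 46.2% met it there, against 2.79%, while 93.2% lay at least 2-fold below the lowest NM value. The left-out AM library was set against the same NM values that had chosen the IDs, so these shares are no independent replication of the control level. An ID that passed on the other 5 libraries and met the bound in the library left out was by definition 1 of the 169. Each share is therefore 169 over the number chosen without that library, and it lends the choice no support. The IDs set beside them did not have to be lowered in the other libraries. With an NM library left out, 83.7% of 202 (replicate 1), 88.5% of 191 (replicate 2) and 71.9% of 235 IDs (replicate 3) met the bound there, where 2.50% to 3.21% of the IDs that reached 20 FPKM in the other NM libraries did so.

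**Figure D3:**
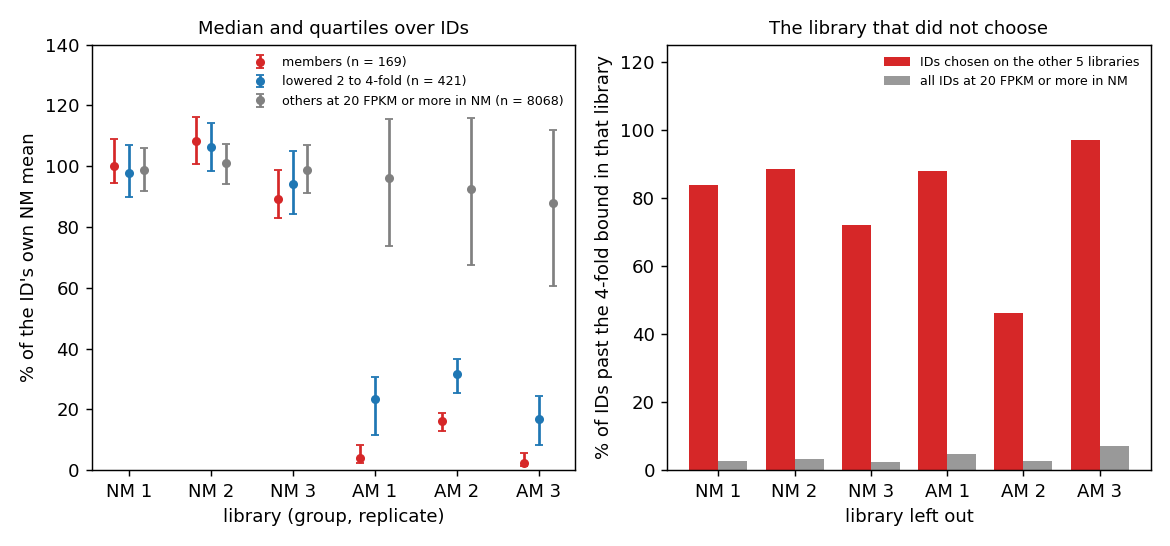
Left, the level in each library as a percentage of an ID's own NM mean (points are medians and bars are quartiles over IDs) for the 169 lowered IDs, 421 IDs lowered 2 to 4-fold and 8068 other abundant IDs, which include the 421. The range of 2 to 4-fold refers to the lowest NM value over the highest AM value. Right, the percentage of IDs past the 4-fold bound in a library that took no part in choosing them (red) and of all IDs that reach 20 FPKM in the NM libraries used (grey); AM replicate 2 has the lowest red bar, at 46.2%.

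The remaining level in mycorrhizal roots differed between the AM libraries. As a percentage of each ID's own NM mean, the median was 3.89% in AM replicate 1 (quartiles 2.30% and 8.15%), 16% in AM replicate 2 (quartiles 12.9% and 18.9%) and 2.49% in AM replicate 3 (quartiles 1.46% and 5.65%). The value in AM replicate 2 was 5.04 times the mean of AM replicates 1 and 3 at the median of 167 IDs (quartiles 2.08 and 7.51). The same ratio had a median of 1.5 in the 421 IDs lowered 2 to 4-fold and of 1.03 in the 8068 other abundant IDs. AM replicate 3 lay at 0.672 times AM replicate 1 at the median (quartiles 0.487 and 0.926), beside 0.934 in the others. In the 197 IDs that met the rule only when AM replicate 2 was left out, the medians were 10.4%, 29.6% and 6.53% of the NM mean in AM replicates 1, 2 and 3. No difference between these sets was tested, since the same values had formed them. AM replicates 1, 2 and 3 had relative depths of 0.841, 0.829 and 0.927.

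The lowered IDs ranged from an even fall in the 3 AM libraries to a fall that was much shallower in AM replicate 2. In 8 IDs AM replicate 2 lay under the mean of the other AM libraries, in 17 at 1 to 1.5 times, in 33 at 1.5 to 3 times, in 45 at 3 to 6 times and in 64 at 6 times or more. At the uneven end, Traes_7DL_081B6948B on arm 7DL held 83.76, 108.66 and 75.93 FPKM in NM and 0.73, 13.65 and 0.4 FPKM in AM. Traes_4DL_5E010A8E2 on arm 4DL held 33.87, 43.59 and 28.46 FPKM in NM and 0.38, 6.41 and 0.17 FPKM in AM. In each, AM replicate 2 exceeded the other AM libraries by over 10 times and stayed under every NM library. At the other end, TRAES3BF080700070CFD_g on chromosome 3B held 556.32, 522.86 and 693.74 FPKM in NM and 69.53, 48.03 and 67.59 FPKM in AM. Traes_7AL_F5A9079A0 on arm 7AL held 41.93, 59.88 and 31.47 FPKM in NM and 6.44, 2.96 and 5.77 FPKM in AM. In these IDs AM replicate 2 was the lowest library of all.

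The IDs were also divided at a ratio of 3, after the values had been seen. The 58 IDs under it held a median of 9.69%, 16.1% and 7.89% of the NM mean in AM replicates 1, 2 and 3, and the 109 IDs at or above it held 2.87%, 16.2% and 1.86%. The division uses these same values, and the rule bounds AM replicate 2 from above, so the medians are a description only. Across the 169 IDs, the percentages kept in AM replicates 1 and 3 had a Spearman rho of 0.83, against 0.31 for AM replicates 1 and 2 and 0.25 for AM replicates 2 and 3. On the log2(FPKM + 1) scale, the levels in AM replicate 2 followed those in the NM libraries with Pearson r of 0.93 to 0.94, while AM replicates 1 and 3 followed them with 0.69 to 0.79. The rule requires the lowest NM value to be at least 4 times the highest AM value, which was that of AM replicate 2 in 86.4% of the IDs. The choice itself thus holds AM replicate 2 under the NM level and narrows its spread, so nothing is read from how these correlations differ. They are also across IDs of the same libraries, which share depth and are not independent replicates, and they are a description. What lies behind the higher level in AM replicate 2 was not tested.

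**Figure D4:**
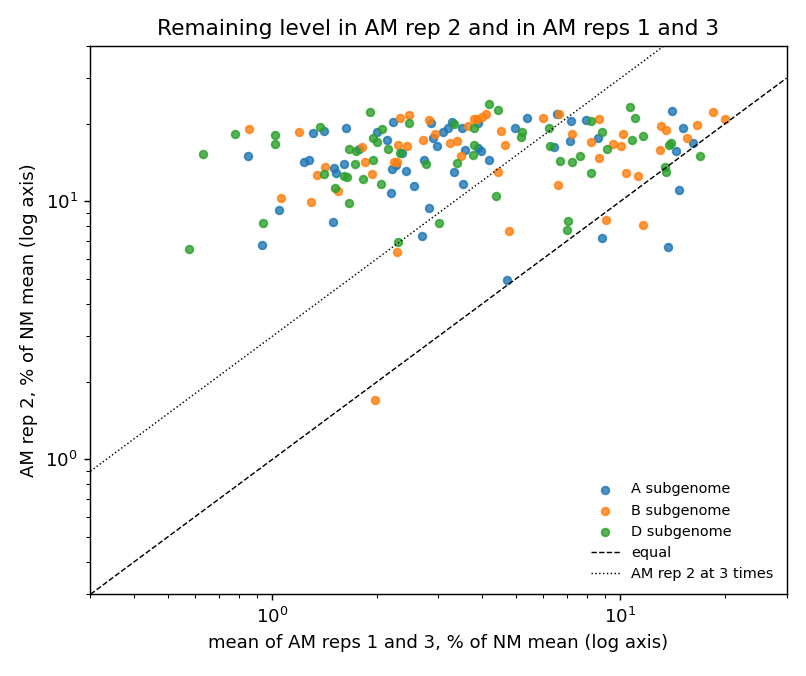
Level in AM replicate 2 against the mean of AM replicates 1 and 3, each as a percentage of the ID's NM mean on log axes, for the lowered IDs above 0 on both axes, coloured by subgenome; the dashed line marks equality and the dotted line 3 times. Most points form a band near 16% in AM replicate 2 while they spread from under 1% to about 20% along the other axis, and all subgenomes occur along it. The rule bounds the AM replicate 2 values from above, which shapes this band.

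Control libraries also differed over the lowered IDs. NM replicate 2 was the highest control in 59.8% of the 169 IDs, beside 49.9% of the 421 lowered 2 to 4-fold and 36.7% of the other 8068. NM replicate 3 was the lowest in 110 of the 169, in 211 of the 421 and in 3193 of the 8068. The median levels were 93.3, 103 and 87.2 FPKM in NM replicates 1, 2 and 3. The coefficient of variation over the 3 NM libraries had a median of 14.2% (quartiles 9.46% and 20.1%), against 14.6% in the IDs lowered 2 to 4-fold and 10.7% in the others.

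All 3 subgenomes contributed similar numbers of lowered IDs. Subgenome A held 56, B held 55 and D held 58 of them, which were 2.16% of 2588 (exact interval 1.64% to 2.80%), 1.87% of 2937 (1.41% to 2.43%) and 2.14% of 2712 abundant IDs (1.63% to 2.76%). The 3 intervals overlapped, and the shares were not tested against each other. The median NM mean was 78.1 FPKM on A, 96.3 FPKM on B and 119 FPKM on D. Related A, B and D copies could not be paired without sequences, and reads of such copies may have been divided among IDs or counted for several. Apart from the 2 dropped IDs, 0 pairs of lowered IDs lay within 5% of each other in all 6 libraries.

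Lowered IDs occurred on 20 of the 21 chromosomes and in 38 of 41 arms, with chromosome 3B taken whole. Among the homoeologous groups, group 5 held 36 of them (2.76% of 1306 IDs, exact interval 1.94% to 3.80%) and group 4 held 32 (2.74% of 1167, 1.88% to 3.85%), while group 7 held 9 (0.940% of 957, 0.431% to 1.78%). Chromosome 6B held 0 of 229 IDs, which allows a share of up to 1.31% by 3 counts of the total and has an exact upper limit of 1.60%, while 6A held 7 of 383 and 6D held 9 of 359. The remaining arm without a lowered ID was 4DS, with 0 of 133, which allows up to 2.26% by 3 counts and has an exact upper limit of 2.74%. No test was made between arms, and IDs of an arm may include copies of the same gene.

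**Figure D5:**
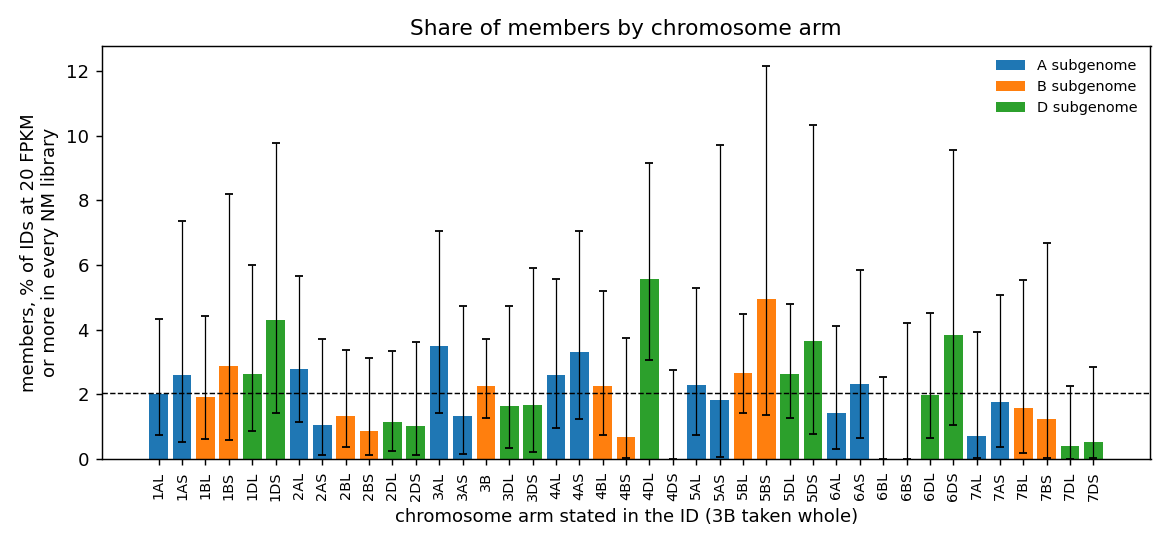
Lowered IDs as a percentage of the abundant IDs, by the chromosome arm stated in the ID and coloured by subgenome, with exact binomial 95% intervals; the dashed line is the share over all arms, 2.05%. Arm 4DL has the tallest bar, at 5.56%, and 6BL, 6BS and 4DS have none.

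Arm 4DL held 14 lowered IDs of 252, or 5.56% (exact interval 3.07% to 9.15%), the highest share of the 41 arms. It was singled out after its value had been seen. IDs lowered 2 to 4-fold were not more frequent there, with 3.57% of the 252 against 5.11% over all arms. The 14 IDs had NM means of 28.5 to 514 FPKM, and AM replicates 1, 2 and 3 kept a median of 7.56%, 17.9% and 3.88% of them. In 6 of the 14, AM replicate 2 lay under 3 times the mean of AM replicates 1 and 3, and these 6 had NM means within the narrow range of 116 to 173 FPKM. Among them, Traes_4DL_614C6B143 held 161.46, 171 and 186.11 FPKM in NM and 16.79, 32.07 and 13.73 FPKM in AM. Traes_4DL_469179461 held 111.78, 131.94 and 134.53 FPKM in NM and 11.45, 16.26 and 9.31 FPKM in AM. The 6 IDs held 9.09 to 16.8 FPKM in AM replicate 1, 16.3 to 32.1 FPKM in replicate 2 and 6.90 to 15.5 FPKM in replicate 3. The other 8 IDs of the arm had NM means of 28.5 to 514 FPKM and kept a median of 3.06%, 18.7% and 1.56% in AM replicates 1, 2 and 3.

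Arms 5BL and 5DL held 13 of 490 IDs (2.65%, exact interval 1.42% to 4.49%) and 10 of 380 (2.63%, 1.27% to 4.79%), close to the 2.05% over all arms. They too held IDs on both sides of the ratio of 3, as did other arms. On 3AL, 3 of 7 lowered IDs lay under it, and on 4AS 2 of 6 did. On 5BL, 7 IDs with NM means of 26.7 to 144 FPKM fell evenly, with AM replicate 2 at 1.04 to 1.64 times the other AM libraries and medians of 12.9%, 17.6% and 13.2% of the NM mean. The other 6 IDs of 5BL reached NM means up to 1032 FPKM and kept 3.27%, 18.9% and 2.05%. On 5DL, 6 IDs with NM means of 38.2 to 350 FPKM had AM replicate 2 at 0.882 to 1.96 times the other AM libraries, and the 4 others, led by the most abundant ID of all, had it at 4.35 to 16.3 times. Chromosome 3B held 15 lowered IDs of 665, 8 of them with AM replicate 2 under 3 times the mean of AM replicates 1 and 3. Of the 14 that carry a TRAES3BF number, 0 shared its first 4 digits with another.

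Arm 6DL held 5 lowered IDs of 255, or 1.96% (exact interval 0.640% to 4.52%), close to the 2.05% over all arms. Of these 5, 3 had NM means of 700 FPKM or more, out of 12 such IDs in all 169. The number of abundant IDs of the arm at that level is not given here. Besides Traes_6DL_42DF4F0A4, Traes_6DL_518F5BCCC held 976.36, 1101.2 and 706.49 FPKM in NM and 15.81, 118.64 and 10.23 FPKM in AM, and Traes_6DL_B28B5501C held 750.04, 810.6 and 598.42 FPKM in NM and 15.1, 87.78 and 11.1 FPKM in AM. In these 3 IDs AM replicate 2 was the highest AM library by over 5 times, and whether they share reads was not tested. The arm was also picked after its values had been seen, and 700 FPKM was not a bound of the classes given above. That level lies between the NM mean of Traes_6DL_B28B5501C, 719.69 FPKM, and that of the next lowered ID, 695.39 FPKM. Nothing is therefore read from the 3 of 12. Groups 1 and 6 were the groups in which AM replicate 2 stood out most, at a median of 7.07 and 8.36 times the other AM libraries, and group 3 the one in which it stood out least, at 2.91 times.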

How the data were processed

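The authors deposited 1 table of FPKM values with 2 decimals, 1 column per library, per the file headers, made from some 100 mg of root and pairs of 150 bp reads, per the labels' protocols. The submitters' processing notes name RSEM, edgeR, TopHat2 and Cufflinks but no version or role. The genome build and the annotation were not given in the sources used here. All 6 columns matched a sample title and 0 were left unused. Absolute depth is unknown: the value of 1 fragment differs with transcript length, whole reads could not be recovered, and a count test was not made.

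The members, classes and lists were chosen with earlier results of these data known. IDs were named by a rule on level, steepness, homoeologous group and evenness among AM libraries; further IDs of arms 4DL and 6DL were chosen after their values were seen. AM and NM were compared on log2(FPKM + 1) with limma 3.58.1 under R 4.3.3, using its trended variance. This scale understates changes of low values. The fit had no block, covered 64974 IDs that reached 1 FPKM in 3 or more libraries (49290 left out) and was adjusted by Benjamini-Hochberg. On simulated data for AM against NM with 64974 IDs, 22% of 100 IDs changed 2-fold and 65% of 100 changed 4-fold were recovered, with 3 false calls among 90. Intervals are exact binomial at 95% (SciPy 1.17.1, Python 3.11.15). Relative depth is the most frequent ratio between a library's low values and those of NM replicate 1. Description words fixed for marker lists could not be applied, because no ID is annotated.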

Additional observations from a re-analysis of the deposited data

How the results depend on the processing

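No setting reversed a result, but the rule itself fixes the direction of the lowered IDs, so this is no measure of stability. Several counts and shares moved. A bound of 3-fold gave 289 IDs (4.82% of the NM and 0.465% of the AM total), a bound of 8-fold gave 18 (0.575% and 0.0211%), and group means in place of extremes gave 516 (6.49% and 0.75%), all by the construction of the rule. With XLOC and EPlTAEG IDs there were 192, with 3.85% of the NM total. A floor of 10 or 40 FPKM, counting identical IDs and median-ratio rescaling gave 208, 130, 171 and 182. Leaving out 1 library gave 174 to 366 IDs (366 without AM replicate 2), NM shares of 3.30% to 5.6% (4.32% without NM replicate 3), AM shares of 0.257% to 0.328% over the AM libraries kept, 1902 to 3783 IDs called lower in all and 150 to 168 of the 169; the cause was not tested. At an adjusted p under 0.01, 1626 IDs and 133 of the 169 were called lower. In the fit with a replicate block, 4094 IDs and all 169 were called lower; the same-numbered libraries' deviations correlated at 0.124, 0.0708 and 0.0437, each the highest of its library, so this is a hint and not a pairing. Pseudocount 0.1 and no filter each called 168 of the 169, beside 4344 and 4145 IDs called lower in all. Of 184 alternative fits of the 19 named IDs, 7 fell short of the threshold, all with 1 library left out. The ratio of AM replicate 2 to the other AM libraries was 5.04 after rescaling and 3.92 in the 366 IDs chosen without it. The count test had no counts and was not run. Depth limits the low AM values, where FPKM moves in steps of 1 fragment.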

Other observations

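Among XLOC loci, which carry no chromosome and were not eligible, 23 of the 631 that reached 20 FPKM in all NM libraries met the same bounds. The mirrored rule, with at least 20 FPKM in every AM library and all NM values at least 4-fold lower, held for 299 wheat IDs, identical IDs dropped. In all, 8206 wheat IDs reached 20 FPKM in every AM library, identical IDs counted. The 169 described above came from 8237 abundant IDs, identical IDs dropped.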
